A study of Mus musculus with 30 samples.

Results

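The 150 transcripts whose levels differed most between wild-type mouse brains were taken from a table of 34871 rows measured in 30 brains. A row could enter if its mean over the 30 brains was above 4 on the deposited log2 scale and it did not lie on chromosome X or Y, which left 14494 rows. The standard deviation (SD) was then computed over the 10 wild-type brains, and the 150 rows with the highest SD were kept. The wild-type SD therefore chose the members and is given below as a description only. All mice were 8 months old, and each sample is the RNA of the cerebral hemispheres of a separate mouse. Of the 30 mice, 10 were Tmem106b +/+ (WT), 10 were Tmem106b +/- (HET) and 10 were Tmem106b -/- (KO). The + and - stand for the intact and the disrupted copy of Tmem106b in the knockout line. Each genotype held 5 females and 5 males, 6 mice of cohort 1 and 4 of cohort 2. The meaning of the cohort number, the mouse strain and the targeted piece of the gene were not given in the sources used here. Tmem106b codes for a membrane protein of lysosomes, and the HET and KO mice are used here as further sets of brains in which the same transcripts can be followed.

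Levels in a whole-hemisphere extract can differ between like animals for several known biological reasons. Immediate early genes such as Fos are switched on within minutes of neuronal firing and fall back soon after. Peptide hormones such as prolactin are made by small glands or nuclei that lie at the edge of a brain dissection, globin RNA is carried by red cells, and class II histocompatibility genes are read in antigen-presenting cells.

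The median over all rows came to 2.82 to 2.91 per library. The lower quartile differed more between libraries, from -1.20 to -0.07, and it followed sex. It lay between -0.41 and -0.07 in females. In males it lay between -1.20 and -0.55, except for WT replicate 4 at -0.29. What lies behind this was not tested. In the labels the RNA integrity number (RIN, with 10 the best score) lay between 8.5 and 10. Tmem106b RNA followed the genotype labels, with 9.06 to 9.27 in WT, 8.54 to 8.62 in HET and 7.43 to 7.67 in KO. The mean of 8 neuronal markers lay between 10.70 and 10.77 in all libraries. The mean of 11 cerebellar markers, among them Pcp2 and Cbln3, lay between 8.39 and 9.02, so RNA of that region was present although the labels name the cerebral hemispheres. KO replicate 4, a male of cohort 2 with a RIN of 10, stood apart. WT replicate 7, also a male of cohort 2, had the same RIN. KO replicate 4 was the farthest of the 10 KO brains from their median for 45 of the 150 members. For 29 of the 150, its squared deviation from the KO mean was larger than that of the other KO brains together. Results that rest on this library are given with and without it. The read depth is unknown, because the deposited values carry no counts.

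Sequences are shown for small RNA members that share a seed, first those of the neighbouring genes Mir132 and Mir212 on chromosome 11, which varied together with Fos in WT (RefSeq, GRCm38.p6, plus strand, 75173723 to 75173744 and 75173443 to 75173464). Both give a mature microRNA with the same seed, bases 2 to 8, shown in capitals.
miR-132-3p: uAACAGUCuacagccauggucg
miR-212-3p: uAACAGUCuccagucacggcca
A second pair, Mirlet7b and Mirlet7c-2 on chromosome 15 (plus strand, 85707325 to 85707346 and 85706616 to 85706637), shares the let-7 seed.
let-7b-5p: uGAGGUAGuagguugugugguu
let-7c-5p: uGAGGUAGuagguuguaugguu
The member rows are those of the hairpin genes, 101 bases for Mir132 and 91 for Mir212, so their values count reads over the precursor region and are no measure of the mature microRNA. Both hairpins lie inside the row of 1700016P03Rik, and without strand information the reads of overlapping genes cannot be told apart. Of 26 members with a microRNA symbol, 23 were found in the RefSeq table.

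Promoter sequences are shown for 3 transcription factor genes of the group that varied together with Fos, because the members of that group moved together in every genotype. Each run holds the 250 bases before the start site of the RefSeq transcript (GRCm38.p6), read along the gene's own strand. Capitals mark TGACG, the core of the cyclic AMP response element, or CGTCA, the same core on the other strand.
Fos (chr12:85473640-85473889, plus strand): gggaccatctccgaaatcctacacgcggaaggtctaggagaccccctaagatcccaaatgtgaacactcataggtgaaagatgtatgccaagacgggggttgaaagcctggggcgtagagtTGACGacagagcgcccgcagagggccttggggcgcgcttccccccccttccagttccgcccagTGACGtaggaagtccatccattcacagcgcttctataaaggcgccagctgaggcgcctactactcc
Nr4a1 (chr15:101266596-101266845, plus strand): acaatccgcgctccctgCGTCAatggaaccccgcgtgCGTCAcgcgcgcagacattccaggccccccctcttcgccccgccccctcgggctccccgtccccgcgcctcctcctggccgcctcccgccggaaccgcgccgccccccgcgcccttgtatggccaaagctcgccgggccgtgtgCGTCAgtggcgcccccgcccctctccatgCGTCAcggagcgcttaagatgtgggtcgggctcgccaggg
Fosb (chr7:19310046-19310295, minus strand): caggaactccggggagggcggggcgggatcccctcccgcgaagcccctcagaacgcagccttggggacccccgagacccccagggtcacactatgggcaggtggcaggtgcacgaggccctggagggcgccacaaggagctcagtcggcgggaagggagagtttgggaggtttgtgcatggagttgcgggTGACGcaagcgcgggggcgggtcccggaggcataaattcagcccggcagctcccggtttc
Of the 19 members of that group, 12 had a promoter in the table, and TGACG was found on either strand in 12 of 12, against 19.8% of 27025 genes with a promoter of the same length. The genes were not matched for GC content, and how far base composition took part in the difference was not tested. The full palindrome TGACGTCA, which contains TGACG, was found in 2 of the 12, Dusp1 and Arl4d, against 1.77% of genes. The serum response element was found in 1 of the 12, Egr2, against 1.62%. Only the 250 bases before the start site were searched, so an element farther upstream would be missed. These are matches of letters, and no binding was measured here.

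The 150 members were a mixed set dominated by short and weakly expressed rows. Small RNA genes made up 65 of the 150 (43.3%), against 2.50% of the 14494 rows that could enter. Protein-coding and immunoglobulin genes were 45 (30%, against 84.0%), long noncoding or unclassified transcripts 26, pseudogenes 7, and 7 rows were not matched to the reference annotation. The median row was 323.5 bases long, against 3399 over all eligible rows, and 63 members (42%, against 2.55%) were shorter than 200 bases. The mean level was under 5 in 91 members (60.7%, against 15.3%). Another gene of the table overlapped 93 of the 150 members, and the share over all eligible rows was not computed. A row that is short and weakly expressed rests on few reads, and how much of its spread is counting noise was not tested, since no counts are at hand.

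The WT SD of the members ran from 3.42 (Prl) down to 0.42, with a median of 0.49, against a median of 0.095 over all eligible rows. The 3 rows just inside the threshold were Gm27699, RP24-317P2.2 and Gm17119, each with an SD of 0.42, and the 3 just outside were Gm27030, Tldc2 and Mir3060, also with 0.42. The threshold thus cut through a continuous series of values. For 38 members (25.3%), 1 WT brain contributed more to the variance than the other 9 together, and WT replicates 4 and 10 were each the farthest brain for 21 members.

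HET and KO brains, whose values the rule for the SD did not use, varied in many of the same transcripts. Of the 150 members, 74 (49.3%) were among the 150 rows of highest SD in HET and 70 (46.7%) in KO, against the 1.03% of eligible rows that such a list holds. The SD lay above the 90th percentile of all eligible rows (0.19 in HET and 0.22 in KO) for 147 members in HET and for 149 in KO. Small RNA rows passed these cuts as a class: over all 362 eligible ones the median SD was 0.27 in HET and 0.29 in KO. Among the 65 small RNA members it was 0.37 and 0.42. Over all eligible protein-coding and immunoglobulin rows it was 0.076 and 0.087, and among the 45 members of that kind 0.46 and 0.48. The members' median SD was 0.38 in HET and 0.42 in KO, against 0.083 and 0.095 over all eligible rows. It was lower than in WT for 119 members in HET and for 104 in KO. The choice of members by their WT spread favours that direction, so nothing is read from it. The 3 lists of 150 shared 51 rows, while 57 members were in neither the HET nor the KO list. Protein-coding genes made up 23 of the 51 shared rows, out of 45 among the members, and small RNA genes 21, out of 65.

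**Figure D1:**
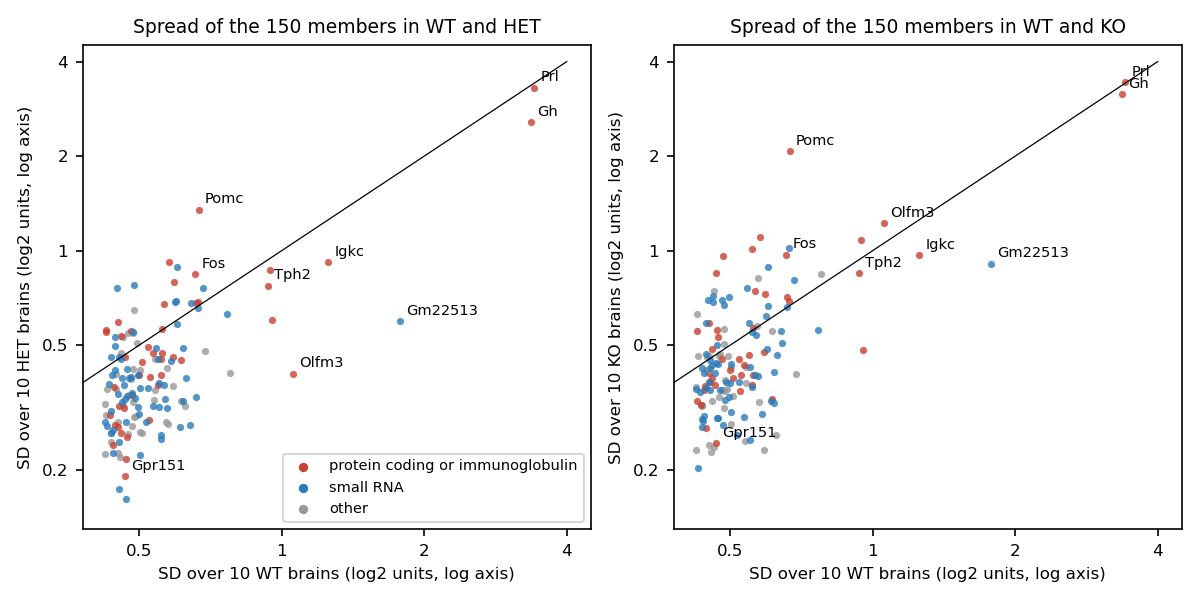
SD of each of the 150 members over 10 WT brains (horizontal, log axis) against its SD over 10 HET brains (left) or 10 KO brains (right), in log2 units, with the line of equal SD and points coloured by kind of gene. Prl and Gh were highest in all 3 genotypes, most members lay below the line, and Pomc lay above it in both panels.

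Whether the spread itself differed between KO and HET was tested with limma on the absolute deviations of each brain from its genotype median. Of the 14494 rows tested, 0 (0.00%) passed at an adjusted p under 0.05, and 605 had an unadjusted p under 0.05. Among the members 0 passed, and 1 had an unadjusted p under 0.05, the small RNA gene Mir1191. A miss in this test does not show that the spreads were equal.

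The 2 members of largest spread encode anterior pituitary hormones. Prolactin (Prl, chromosome 13), the hormone of lactation, had levels from -1.67 through a median of 3.33 to 9.27 in WT. The same values were -0.21, 4.99 and 9.44 in HET and 0.86, 5.90 and 11.23 in KO. Prl thus ran over more than 9 log2 units within each genotype, and the 3 ranges overlapped. Growth hormone (Gh, chromosome 11) ran from -0.55 through 2.08 to 7.85 in WT, from 0.20 through 5.73 to 8.03 in HET and from 0.37 through 4.77 to 12.65 in KO. Pomc, the precursor of corticotropin and beta-endorphin, which both pituitary cells and arcuate neurons make, ran from 4.20 through 4.81 to 6.58 in WT, from 3.67 through 5.17 to 7.57 in HET and from 4.04 through 4.94 to 10.99 in KO. The lowest Prl and Gh values, -1.67 and -0.55, both came from WT replicate 4, where the lower quartile over all rows was -0.29. Levels this low may rest on few reads, and how far they widen the ranges and SDs was not tested. KO replicate 4 was the highest of all brains for each of the 3 genes. The SD in KO was 3.43 for Prl, 3.15 for Gh and 2.08 for Pomc, and without KO replicate 4 it was 2.90, 1.99 and 1.09. In bulk RNA, fewer cells of a type and less RNA per cell cannot be told apart.

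Prl and Gh rose and fell together from brain to brain. Their Pearson r was 0.80 over the 10 HET brains (Spearman rho 0.82; permutation p = 0.00754 and 0.00508, adjusted 0.0138 and 0.0145 over the 20 pair tests made in HET and KO). It was 0.87 over the 10 KO brains (rho 0.95; permutation p = 8.0e-05 for both, adjusted 0.000667 and 0.00160). Without the 2 brains farthest from the median of Prl it was 0.81 in HET and 0.80 in KO. For Pomc, the r with Gh was 0.66 in HET (rho 0.70, permutation p = 0.0314 and 0.0299, adjusted 0.0392 and 0.0517) and 0.85 in KO (rho 0.67, permutation p = 0.0115 and 0.0397, adjusted 0.0192 and 0.0573), and without the 2 brains farthest from the median of Gh these were 0.48 and 0.34. With Prl, the r of Pomc was 0.48 in HET (rho 0.49, permutation p = 0.154 and 0.153, adjusted 0.171 and 0.170) and 0.71 in KO (rho 0.67, permutation p = 0.0180 and 0.0401, adjusted 0.0277 and 0.0573), and 0.25 and 0.34 without the 2 farthest brains. The pituitary list held 10 genes, of which 4 were eligible. Its other eligible gene, the secretory granule protein Chga, which neurons also make, had an SD of 0.079 in WT, 0.076 in HET and 0.062 in KO.

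**Figure D2:**
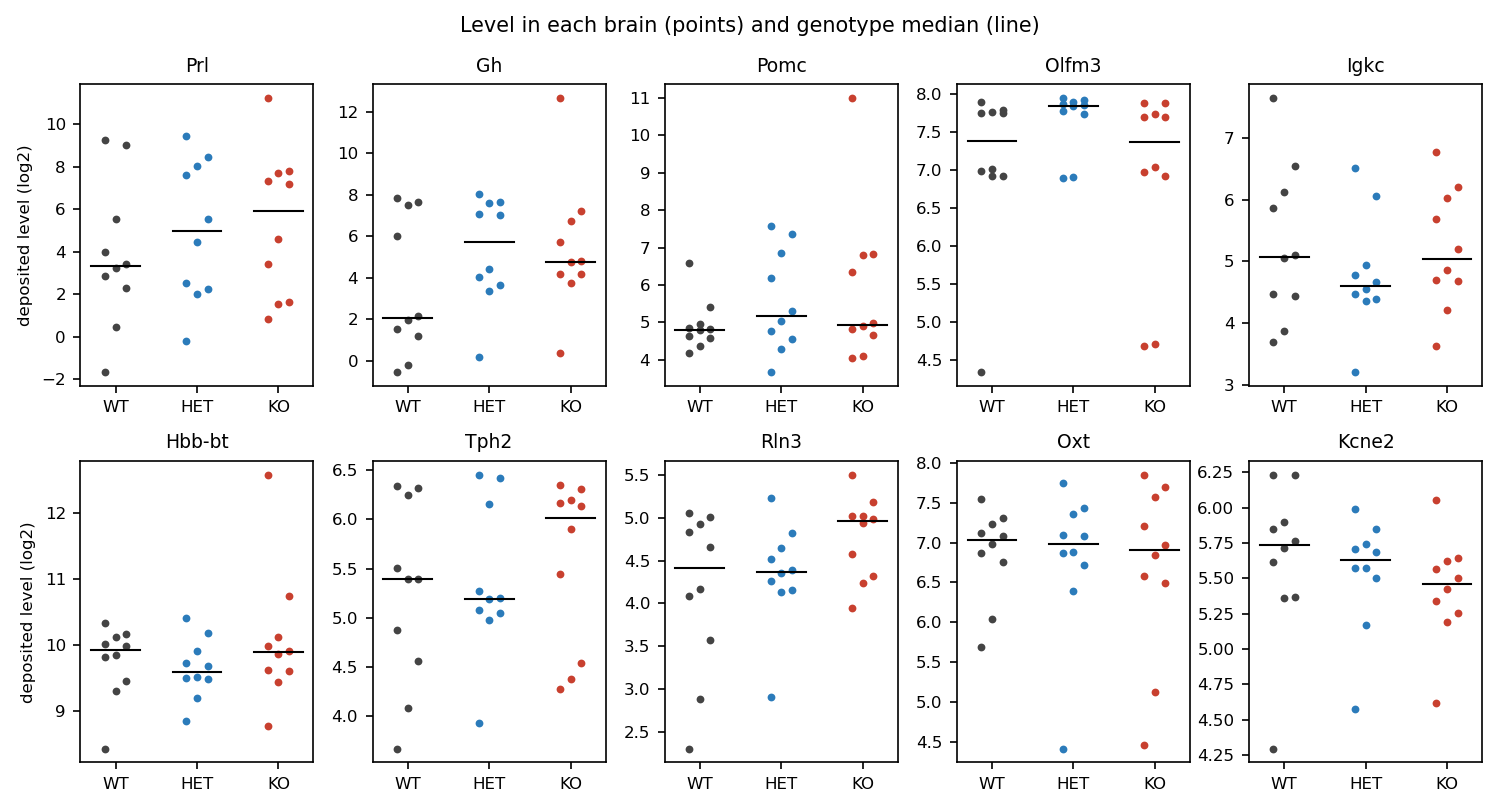
Deposited log2 level of 10 members in each brain (points) with the median of the 10 brains of each genotype (line). Prl and Gh spread over several log2 units in every genotype, Olfm3 fell into separate bands, and single brains stood far from the rest for Pomc, Hbb-bt, Oxt and Kcne2.

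The members were grouped by how they varied together over the 10 WT brains, with average-linkage clustering at a Pearson r of 0.5. There were 12 groups of at least 5 rows, with 109 members in all, and 41 members were in none. The WT correlations formed the groups and carry no test. Over all pairs of members the median r came to -0.02 in WT, 0.00 in HET and 0.01 in KO. A group of 19 led by Egr2, Fos and Arc had a median r of 0.82 in WT, 0.84 in HET and 0.81 in KO. A group of 24, among them Gm9939 and Kcnd3os, had 0.71, 0.44 and 0.64, and a group of 7 with class II genes had 0.72, 0.56 and 0.29. In the other 9 groups the median r lay between 0.60 and 0.76 in WT, and between -0.15 and 0.39 in HET and KO.

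**Figure D3:**
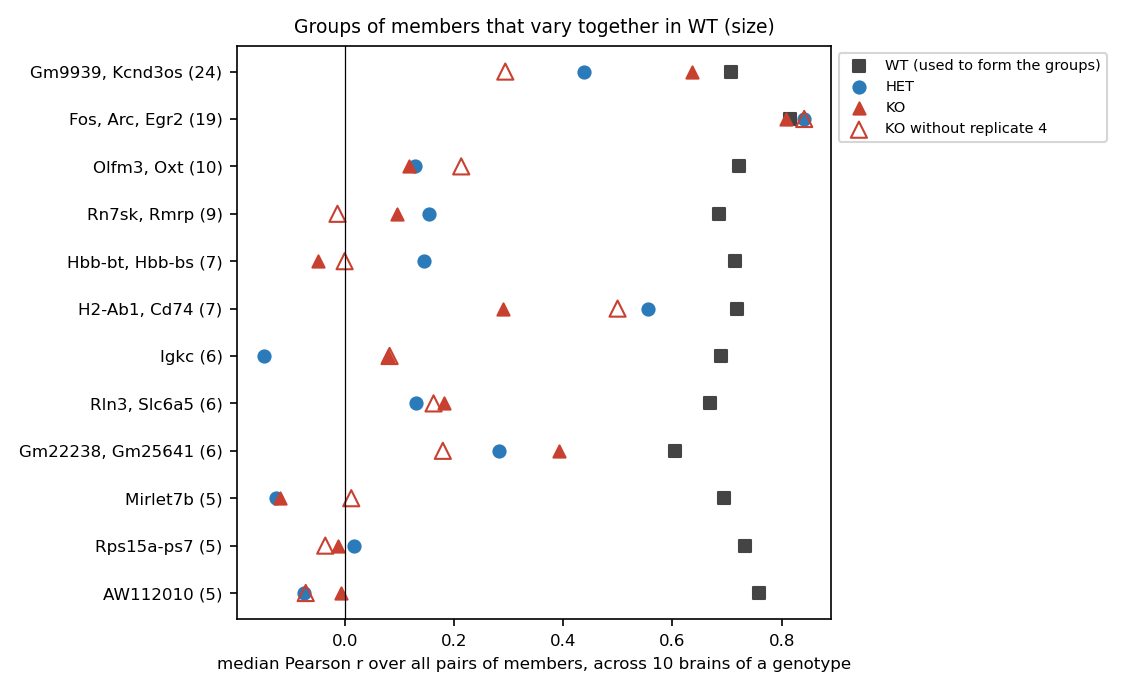
Median Pearson r over all pairs of members of each of the 12 groups, computed over the 10 brains of a genotype; the number in brackets is the group size, and open triangles leave out KO replicate 4. The group with Fos, Arc and Egr2 stayed above 0.8 in every genotype, while the groups named for Olfm3, Hbb-bt, Igkc and Rln3 lay near 0 in HET and KO.

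The group of 19, with a median r above 0.8 in each genotype, held 10 genes of the immediate early list. Fos, a transcription factor subunit of AP-1, ran from 6.21 through 7.62 to 8.20 in WT, from 6.06 through 8.09 to 8.65 in HET and from 5.04 through 6.73 to 8.36 in KO. Arc, a postsynaptic protein whose RNA is carried into dendrites, ran from 7.86 through 8.99 to 9.59 in WT, from 7.78 through 9.18 to 9.98 in HET and from 7.08 through 8.16 to 9.51 in KO. Egr2, a zinc finger transcription factor, had the widest spread of the group, from 2.70 through 4.41 to 5.50 in WT, from 3.19 through 5.14 to 5.93 in HET and from 1.90 through 3.70 to 5.42 in KO. The same brains were at the ends for many of these genes: WT replicate 2, HET replicate 3 and KO replicate 2 were lowest for Fos, Arc, Egr2, Dusp1 and Sik1. KO replicate 7 was the highest KO brain for Fos, Arc, Egr2, Nr4a1, Dusp1, Sik1, Arl4d and Spry4.

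Mir132 and Mir212, whose shared seed is printed above, moved with the protein-coding genes. Mir132 ran from 4.29 through 5.60 to 6.35 in WT, from 4.85 through 6.24 to 6.49 in HET and from 3.03 through 4.70 to 6.32 in KO. Its Pearson r with Fos was 0.95 over the 10 HET brains (rho 0.85, permutation p = 0.000500 and 0.00274, adjusted 0.00160 and 0.00913) and 0.92 over the 10 KO brains (rho 0.85, permutation p = 0.000360 and 0.00262, adjusted 0.00144 and 0.00913). Fos with Arc gave 0.96 in HET (rho 0.93, permutation p = 0.000100 and 0.000340, adjusted 0.000667 and 0.00307) and 0.97 in KO (rho 0.93, permutation p = 6.0e-05 and 0.000460, adjusted 0.000667 and 0.00307). Without the 2 brains farthest from the median of Fos, these 4 values lay between 0.79 and 0.94. The other protein-coding members of the group were the orphan nuclear receptors Nr4a1 and Nr4a3, the AP-1 subunit Fosb, the phosphatase Dusp1, the kinase Sik1, the endothelial gene Apold1, the matrix protein Cyr61, the transcription factor Klf2, the growth factor signalling inhibitor Spry4, the small GTPase Arl4d and the death receptor Tnfrsf25. Their levels ran together with Fos in WT by construction.

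**Figure D4:**
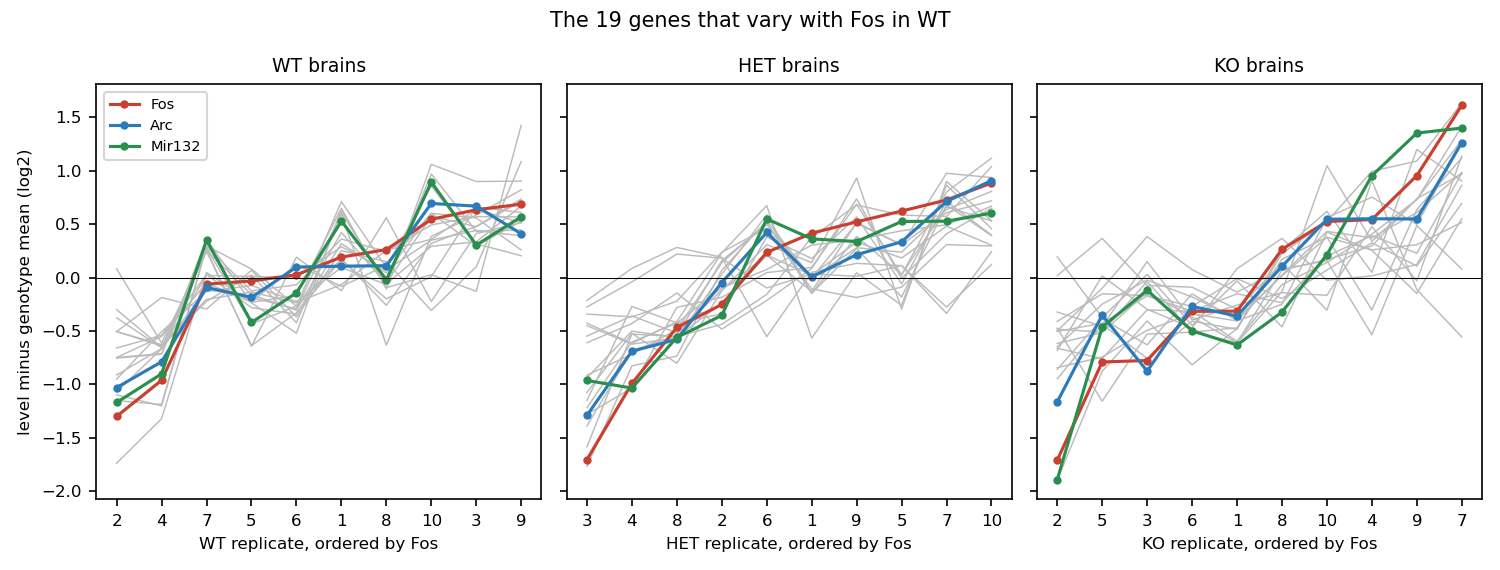
Level of each of the 19 members of the group with Fos, minus its genotype mean (log2), in the 10 brains of WT, HET and KO ordered by Fos; Fos, Arc and Mir132 are coloured and the other 16 grey. The lines climb together in each genotype. Relative to the genotype mean, the mean of the 19 ran from -0.81 to 0.64 in WT, from -0.95 to 0.61 in HET and from -0.76 to 0.95 in KO.

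Of the 26 eligible genes on the immediate early list, 10 were members, and 17 were among the 150 rows of highest SD in HET and 17 in KO. Over the list the median SD reached 0.41 for WT, 0.52 for HET and 0.50 for KO, against 0.095, 0.083 and 0.095 over all eligible rows. The list of later activity genes, with Bdnf and Vgf among its 10 eligible genes, held 0 members, and its median SD was 0.19, 0.15 and 0.16.

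Most members of this group had a lower mean in KO than in HET, but none passed the test. For KO against HET, 28 of 23695 rows (0.118%) were called by limma at an adjusted p under 0.05, and among the 150 members 0 were called while 16 (10.7%, against 8.66% of all rows) had an unadjusted p under 0.05. Of those 16, 11 belonged to the group of 19. Fos differed by -0.97 ± 0.31 (log2 ± SE, adjusted p = 0.29), Arc by -0.80 ± 0.25 (adjusted p = 0.25), Egr2 by -1.13 ± 0.34 (adjusted p = 0.23), Mir132 by -0.92 ± 0.28 (adjusted p = 0.25) and Mir212 by -1.01 ± 0.27 (adjusted p = 0.17). In 16 of the 19 the estimate was below 0, and since these genes vary together they are not 16 separate observations. Within cohort 1 the mean of Fos was 7.72 in HET and 6.14 in KO, and within cohort 2 it was 7.83 and 7.66. Arc had 8.98 and 7.75 in cohort 1, and 9.20 and 8.97 in cohort 2. Whether the genotype difference itself differed between cohorts was not tested.

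No member was called for KO or HET against WT either. For KO against WT, 237 of 23695 rows (1.00%) were called, 0 of them members, and 16 members (10.7%, against 12.01% of all rows) had an unadjusted p under 0.05. For HET against WT, 1 row (0.00422%) was called, which was no member, and 9 members (6%, against 6.32% of all rows) had an unadjusted p under 0.05. Both comparisons use the same WT brains. The median size of the difference was 0.16 over the members for KO against WT and 0.13 for KO against HET, against 0.054 and 0.050 over all rows.

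No member was called for sex. Over the 20 HET and KO brains, 24 of 23695 rows (0.101%) differed between males and females, 0 of them members, and 9 members (6%, against 9.69% of all rows) had an unadjusted p under 0.05. Prl had means of 6.44 in HET females and 3.58 in HET males, and 5.63 and 5.03 in KO, well within its spread between brains.

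Cohort separated some of the members, and every one of these calls was lost without a single brain. Over the HET and KO brains, 2040 of 23695 rows (8.61%) differed between cohorts, and 21 of the 150 members (14%) did, 6 higher and 15 lower in cohort 2. Without KO replicate 4 the fit called 301 rows and 1 member, the small RNA gene Gm27516, which was not among the 21. The members called higher were 3 class II genes, the hairpin Mir5107 that lies inside Cd74, Spry4 and the small RNA gene Mir682. H2-Ab1, a class II chain that presents peptides to helper T cells, ran from 3.71 through 4.30 to 4.69 in the 12 brains of cohort 1 and from 4.17 through 4.81 to 5.32 in the 8 brains of cohort 2. The groups overlapped, and the difference was 0.62 ± 0.16 (log2 ± SE, adjusted p = 0.0189), or 0.45 ± 0.18 (adjusted p = 0.24) without KO replicate 4. Cd74, the invariant chain of class II molecules, had 5.46, 5.81 and 6.06 in cohort 1 and 5.75, 6.23 and 7.02 in cohort 2, a difference of 0.54 ± 0.14 (adjusted p = 0.0253), or 0.32 ± 0.16 (adjusted p = 0.35) without that brain. H2-Aa differed by 0.57 ± 0.17 (adjusted p = 0.0483) and H2-Eb1 by 0.47 ± 0.17 (adjusted p = 0.0848, not called), and without that brain by 0.35 ± 0.20 (adjusted p = 0.43) and 0.24 ± 0.19 (adjusted p = 0.59).

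**Figure D5:**
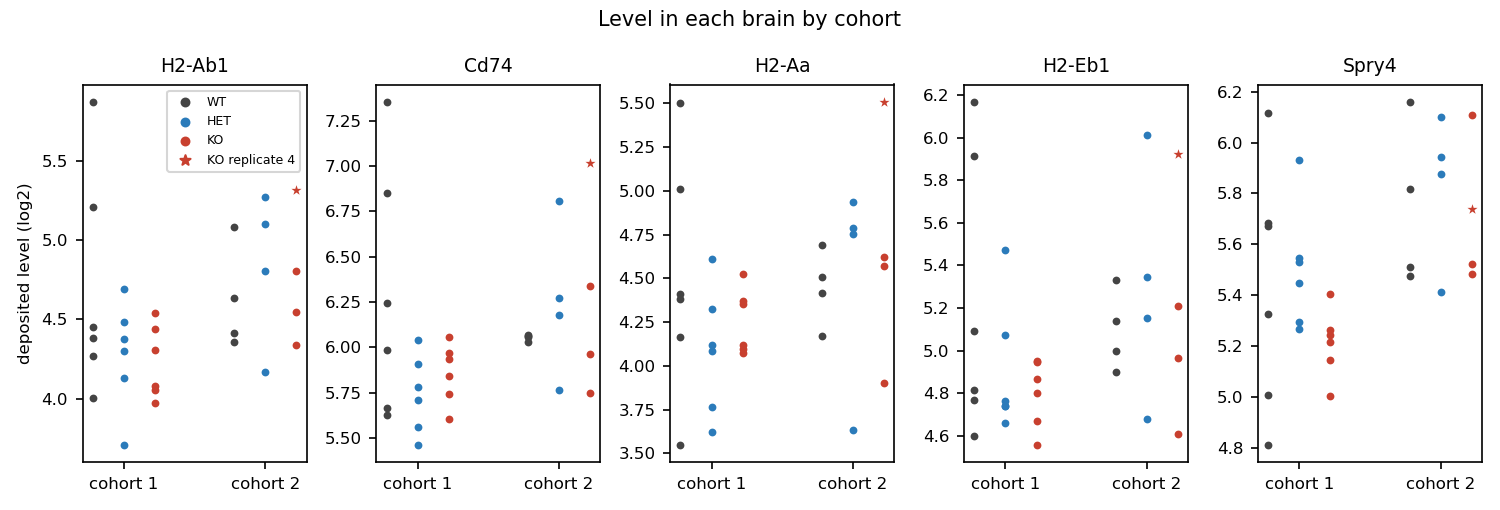
Deposited log2 level of 4 class II genes and of Spry4 in each brain of cohort 1 and cohort 2, coloured by genotype, with KO replicate 4 as a star. The star is the highest KO brain for the class II genes, the cohorts overlap for every gene, and the highest brain for H2-Ab1 and Cd74 is a WT brain of cohort 1.

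The class II genes kept step with each other within genotypes. H2-Ab1 and Cd74 had a Pearson r of 0.90 over the 10 HET brains (rho 0.90, permutation p = 0.000220 and 0.000640, adjusted 0.00110 and 0.00320) and of 0.94 over the 10 KO brains (rho 0.81, permutation p = 0.000560 and 0.00740, adjusted 0.00160 and 0.0177). It was 0.89 in HET and 0.92 in KO without the 2 brains farthest from the median of H2-Ab1. WT replicate 4 was the highest WT brain for H2-Ab1 (5.88), Cd74 (7.36), H2-Aa (5.50) and H2-Eb1 (6.17), HET replicate 8 the highest HET brain and KO replicate 4 the highest KO brain for all 4. The group of 7 that these genes formed in WT had a median r of 0.29 in KO, or 0.50 without KO replicate 4. Of 7 eligible white blood cell genes, 5 were members; the other 2, Ighm and Lyz2, had a WT SD of 0.26 and 0.24. Whether white cells in the vessels took part in these differences was not tested. The mean of 10 microglial markers lay between 7.53 and 7.87 in all libraries.

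Igkc, the constant region of the kappa light chain of antibodies, was another member of the white blood cell list. It ran from 3.70 through 5.07 to 7.64 in WT, from 3.21 through 4.61 to 6.51 in HET and from 3.63 through 5.03 to 6.78 in KO. Its SD of 1.25 in WT, 0.92 in HET and 0.97 in KO placed it among the 11 most variable rows of each genotype. KO replicate 4, the highest KO brain for the class II genes, was also the highest KO brain for Igkc. The 6 rows grouped with it in WT, Igkc included, had a median r of -0.15 in HET and 0.08 in KO.

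A group of 24 rows consisted mainly of noncoding rows that overlap a longer gene. Another gene of the table overlapped 23 of the 24, against 93 of the 150 members. Examples were Tnks for Gm9939, Kcnd3 for Kcnd3os and Purb for Gm11973. The median GC content was 62.5%, against 51.7% over the members and 50.1% over all eligible rows. Gm9939 ran from 2.91 through 4.05 to 5.18 in WT, from 3.62 through 4.22 to 4.84 in HET and from 1.51 through 4.09 to 4.38 in KO. KO replicate 4 held the value of 1.51, and the next lowest KO brain was at 3.73. In that library the mean of the 24 rows was 4.13, below the range of the WT brains (4.77 to 6.03) and of the HET brains (4.95 to 5.72). The median r of the group in KO was 0.64 with this library and 0.29 without it. In cohort 2, 22 of the 24 estimates were lower than in cohort 1 and 13 (54.2%, against 24.0% of all rows) had an unadjusted p under 0.05. Without KO replicate 4 these counts were 16 and 4 (16.7%, against 15.6% of all rows).

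RNA integrity was called for 0 of 23695 rows (0.00%) in limma, with 2011 rows and 34 members (22.7%, against 8.49% of all rows) at an unadjusted p under 0.05 over the 20 HET and KO brains. Of the 34, 14 were in the group of 24, all of them lower at higher RIN. The slope of Prl was 6.01 ± 1.57 per unit of RIN (log2 ± SE, unadjusted p = 0.00113, adjusted p = 0.41), and that of Gh was also above 0 (unadjusted p = 0.00207, adjusted p = 0.43). Without KO replicate 4 the slope was 5.36 ± 2.17 for Prl (unadjusted p = 0.0239) and 3.50 ± 1.88 for Gh (unadjusted p = 0.0791). That brain held the highest RIN of the 20 together with the highest Prl and Gh. Without it, 11 members (7.33%, against 3.90% of all rows) had an unadjusted p under 0.05, 1 of them in the group of 24.

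Olfm3, which encodes a secreted olfactomedin-domain glycoprotein, took on separate levels. It ran from 4.34 through 7.37 to 7.88 in WT, from 6.89 through 7.84 to 7.94 in HET and from 4.69 through 7.36 to 7.87 in KO. Over the 30 brains the values fell into 3 bands, read off after the values were seen: 3 brains between 4.34 and 4.72, 9 between 6.89 and 7.03, and 18 between 7.69 and 7.94. The gaps between the bands, 2.17 and 0.66, were wider than the whole low (0.38) or middle (0.15) band. On the linear scale the median of the middle band was 53.9% and that of the low band 11.5% of the high band's. WT brains were divided 1, 4 and 5 over the low, middle and high band, HET brains 0, 2 and 8, and KO brains 2, 3 and 5. The middle band held 7 females of its 9 brains and the high band 6 of its 18, and 4 and 12 brains were of cohort 1. The group of 10 that Olfm3 formed in WT had a median r of 0.72 with WT replicate 10, the single WT brain in the low band, and of 0.31 without it, and its median r was 0.13 in HET and 0.12 in KO.

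Members known from the hypothalamus, midbrain and hindbrain also varied in each genotype. Oxt, the neuropeptide oxytocin, ran from 5.68 through 7.03 to 7.55 in WT, from 4.41 through 6.98 to 7.75 in HET and from 4.45 through 6.91 to 7.85 in KO. Cartpt, a peptide precursor of feeding and reward circuits, ran from 7.09 through 7.85 to 8.39 in WT, from 6.91 through 7.89 to 8.60 in HET and from 7.35 through 8.19 to 8.61 in KO. HET replicate 4 and KO replicate 8 were the lowest of their genotype for both peptides. Their Pearson r was 0.79 over the 10 HET brains (rho 0.81, permutation p = 0.00760 and 0.00796, adjusted 0.0138 and 0.0177) and 0.75 over the 10 KO brains (rho 0.71, permutation p = 0.0252 and 0.0260, adjusted 0.0336 and 0.0517). Without the 2 brains farthest from the median of Oxt it was 0.55 and 0.28, so in KO the relation rested on those brains. Of the 13 eligible hypothalamic genes, Oxt and Cartpt were the 2 members.

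Tph2, the rate-limiting enzyme of serotonin synthesis in raphe neurons, ran from 3.67 through 5.39 to 6.34 in WT, from 3.93 through 5.19 to 6.45 in HET and from 4.27 through 6.02 to 6.35 in KO. Rln3, the peptide relaxin-3 of the nucleus incertus in the pons, ran from 2.30 through 4.41 to 5.05 in WT, from 2.91 through 4.37 to 5.23 in HET and from 3.95 through 4.97 to 5.50 in KO. Both were lowest in WT replicate 8 and in HET replicate 10. Their Pearson r was 0.85 over the 10 HET brains (rho 0.65, permutation p = 0.00354 and 0.0486, adjusted 0.00885 and 0.0648) and 0.85 over the 10 KO brains (rho 0.56, permutation p = 0.00656 and 0.0972, adjusted 0.0138 and 0.121). It was 0.88 and 0.71 without the 2 brains farthest from the median of Tph2. Slc6a5, the glycine transporter of inhibitory neurons of the brainstem and spinal cord, ran from 3.68 through 4.78 to 5.56 in WT, from 4.36 through 4.63 to 5.65 in HET and from 4.21 through 4.89 to 5.56 in KO. No relation with Tph2 was found at this number of brains, with an r of -0.15 in HET (rho 0.04, permutation p = 0.676 and 0.923) and 0.33 in KO (rho 0.28, permutation p = 0.340 and 0.429), and of 0.49 and -0.05 without the 2 brains farthest from the median of Tph2. HET replicate 10, which was lowest for Tph2 and Rln3, was highest for Slc6a5. The list of midbrain and hindbrain genes had 10 eligible genes, 3 of them members, the third being the intermediate filament gene Prph.

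In KO and in WT, a single brain lay at 1 end of the range for all 3 globin members. Hbb-bt, an adult beta globin, ran from 8.43 through 9.92 to 10.33 in WT, from 8.84 through 9.60 to 10.41 in HET and from 8.78 through 9.89 to 12.57 in KO. KO replicate 9 held the highest value of all brains for Hbb-bt (12.57), Hbb-bs (12.80) and Hba-a2 (12.31). WT replicate 7 was the lowest WT brain for the same 3 genes. The r of Hbb-bs with Hba-a2 was 0.91 over the 10 KO brains (rho 0.52, permutation p = 0.0249 and 0.137, adjusted 0.0336 and 0.161) and 0.28 without the 2 brains farthest from the median of Hbb-bs, so in KO it rested on those brains. It was 0.63 over the 10 HET brains (rho 0.70, permutation p = 0.0486 and 0.0310, adjusted 0.0571 and 0.0517), and 0.60 without the 2 HET brains farthest from the median of Hbb-bs. The globins share near-identical copies, and how reads were divided among them is not given in the sources used here.

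Among the choroid plexus genes, 1 of 18 eligible was a member, the potassium channel subunit Kcne2. It ran from 4.29 through 5.74 to 6.23 in WT, from 4.58 through 5.63 to 5.99 in HET and from 4.62 through 5.46 to 6.06 in KO, with WT replicate 10, HET replicate 5 and KO replicate 5 the lowest. Other choroid plexus genes fell just short of the threshold, with Kcnj13, Kl and Sostdc1 at ranks 207, 221 and 257 by WT SD. The least variable gene of the list in WT, Rdh5, ranked 5890. KO brains had a median SD of 0.29 over the 18 genes, WT brains 0.25 and HET brains 0.17. Each of these lay above the median over all eligible rows. Of the 28 marker and pathway lists examined, 7 held a member, and 27 of the 150 members were in a list. The lists of circadian clock genes (18 eligible), glucocorticoid-induced genes (15), heat shock proteins (11), endothelial cells (11), meningeal fibroblasts (18) and cerebellum (11) held none. That does not mean that they were steady. In the same order, their median WT SD was 0.17, 0.18, 0.12, 0.13, 0.19 and 0.22. The clock genes Ciart and Per1 ranked 160 and 181 by WT SD.

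Small RNA genes also fell into groups in WT. A group of 9 held Rn7sk, the RNA that holds the elongation factor P-TEFb inactive, and Rmrp, the RNA of the RNase MRP complex. Rn7sk ran from 7.73 through 8.64 to 9.14 in WT, from 8.10 through 8.68 to 9.29 in HET and from 7.99 through 8.71 to 9.43 in KO. The median r of the 9 came to 0.68 in WT, 0.15 in HET and 0.10 in KO. WT replicate 5 was the lowest WT brain for Rn7sk, Rmrp and S100a4, a calcium-binding protein of the same group. Mirlet7b and Mirlet7c-2, which share a seed and lie on the same chromosome, were placed in different groups. The SD of Mirlet7b was 0.62 over WT brains, 0.49 over HET brains and 0.33 over KO brains.

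For some members the WT SD was far above the HET and KO SDs. Gpr151, an orphan receptor of habenular neurons, ran from 3.01 through 4.23 to 4.57 in WT, from 3.93 through 4.18 to 4.57 in HET and from 3.85 through 4.23 to 4.62 in KO. By SD it ranked 103 of 14494 in WT, 1474 in HET and 1103 in KO, and its low value belonged to WT replicate 1. The SD of Gm22513, a small RNA gene on chromosome 12, was 1.78 for WT, 0.60 for HET and 0.91 for KO, with WT replicate 7 at -1.01 and the next lowest WT brain at 2.59. As the rule took the highest WT SDs, such members are favoured by it and no test was made of their difference in spread beyond that of KO against HET.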

How the data were processed

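Total RNA of the cerebral hemispheres of 30 mice was sequenced. Per the submitters' processing notes, the tools were Bowtie 1.1.0 and TopHat2 2.0.12 and the genome build mm10. Information on counting, annotation release, strand and depth was not given in the sources used here. Per the file headers, the authors deposited log2 RPKM values after conditional quantile normalization, a method that evens out length and GC effects. Values are thus comparable between libraries rather than as absolute RPKM, and short or weak rows are the least precise. Genotypes were taken from the labels, and replicate numbers in the order of the samples.

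The members and all gene lists were chosen with earlier results of these data known. Each row with a mean above 0 (23695) was fitted in limma 3.58.1 (R 4.3.3) with genotype, sex, cohort and RIN, using eBayes with an intensity trend and Benjamini-Hochberg adjustment over all rows fitted. Genotype contrasts used the 30 libraries, and sex, cohort and RIN the 20 HET and KO libraries, since WT brains chose the members. Spread was tested on absolute deviations over the 14494 eligible rows. Pair correlations were tested by two-sided permutation with 100000 resamples. The fits were tested on simulated data with independent noise and no outlying library, so that check does not cover the effect of a single brain. For spread it used a large widening in KO and counted recovery at an unadjusted p under 0.05. Genes named are the 20 members of highest WT SD, up to 6 list members per list, the 10 called members of lowest p per contrast and the 6 rows nearest to each group's mean, with predicted and small RNA genes counted but named only among the first 10. Mir132, Mir212, Mirlet7b, Mirlet7c-2, Mir5107, Mir682, Mir1191, Gm27516, Gm11973, Kcnd3os, Gpr151, Rn7sk, Rmrp, Klf2, Fosb, Nr4a3 and Tnfrsf25 were named after their values were seen. Alternatives were other filters, scaling, covariates, library weights, each cohort alone, and leaving out each library.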

Additional observations from a re-analysis of the deposited data

Results flagged for a closer look

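For the 34 genes named by rule, the highest and lowest brain of each genotype was compared with the rest by Dixon's ratio, in 102 gene and genotype pairs. With normally distributed values chance flags about 1 in 20 such sets, and 17 were flagged. The sets were not independent, since several of these genes vary together and the same brains were flagged repeatedly. The 17 flags are thus not 17 separate observations. The members were chosen for their WT spread, which favours flags in WT.

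In WT, WT replicate 10 stood apart for 4 genes, with Olfm3 at 4.342, Kcne2 at 4.295 (both low), Pomc at 6.581 and Prph at 4.999 (both high). WT replicate 7 was low for the small RNA gene Gm22513 at -1.013 and for the globin gene Hbb-bs at 9.299, and WT replicate 5 was low for S100a4 at 2.779. In HET, HET replicate 10 was low for Rln3 at 2.912 and HET replicate 4 for Oxt at 4.412.

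In KO, KO replicate 4 was high for Pomc at 10.99, Cd74 at 7.018, H2-Aa at 5.509 and H2-Eb1 at 5.922, and low for Gm9939 at 1.511. KO replicate 9 was high for the globin genes Hbb-bt at 12.57, Hba-a2 at 12.31 and Hbb-bs at 12.8. These brains are separate mice, and what set them apart was not tested.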

How the results depend on the processing

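Of the 150 members, 86 were also chosen by the median absolute deviation and 100 after removal of sex, cohort and RIN. With a mean above 3, 41 were chosen, and 127 to 139 when 1 WT library was left out. With a mean above 5, 59 were chosen. The other 91 members had a mean under 5 and could not enter, so the filter alone removed them. Members among the 150 most variable rows numbered 67 to 73 in HET and 64 to 72 in KO when 1 library of that genotype was left out. The 21 members called for cohort became 12 without a filter, 11 with library weights and 1 to 28 when 1 library was left out; 10 to 13 were called without KO replicate 3, 5 or 6 or HET replicate 2, 4 or 5, and 0 of the 21 stayed called in every one of the 25 settings, with 0 reversed. For sex, 1 member was called without a filter. The counts for KO against HET, KO against WT, HET against WT, RIN and spread stayed at 0 in all alternatives run, each library left out included (0 to 0). The log2 deviations and the values without KO replicate 4 were chosen after seeing the data. The number of groups was 12, with 9 by Spearman's rho and 15 on residuals; on residuals the median r of the group with Fos was 0.92 in HET and 0.55 in KO, and that of the class II group -0.05 in KO. No paired analysis was possible because the replicate numbers follow accession order only and link no mice across genotypes. Depth is unknown, so counting error cannot be separated from differences between mice, above all for short rows, and overlapping rows cannot be told apart.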

Other observations

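Some hypothalamic neuropeptide genes that were not members had higher SDs in HET, in KO or in both than in WT, while Agrp, a feeding peptide, had lower ones (0.30 in WT, 0.20 in HET and 0.22 in KO). Avp, the antidiuretic hormone vasopressin, had an SD of 0.30 in WT, 0.61 in HET and 0.88 in KO, and by SD it ranked 585, 27 and 15 among 14494 rows. Gal, the peptide galanin, had 0.30, 0.46 and 0.62. Hcrt, the precursor of the orexins that promote waking, had 0.25, 0.65 and 0.27, and Pmch, the precursor of melanin-concentrating hormone, 0.16, 0.48 and 0.34. Of the 13 eligible hypothalamic genes, 2 were among the 150 rows of highest SD in WT, 6 in HET and 3 in KO. Hba-a1, an alpha globin gene that was no member, had an SD of 0.36 in WT, 0.43 in HET and 1.07 in KO. These genes were picked out after their values were seen, the rule for members favours genes of high WT spread, and no test was made.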
